A study of Mus musculus with 4 samples.

Results

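Disease-associated microglia are a state of the brain's resident macrophages in which genes for lipid transport, phagocytosis and lysosomes are high and genes of the resting, homeostatic state are low. The state has been described around amyloid plaques and in damaged white matter, where microglia take up myelin debris, and its first and second stages are usually set apart by dependence on the receptor Trem2. The cells described here lie between the resting and the fully activated ends of this range in cuprizone-fed mice. They were chosen by a score, the summed unique molecular identifiers (UMIs, each marking 1 captured transcript) of Spp1, Cst7, Lpl, Fabp5, Axl, Clec7a, Itgax and Gpnmb per 10000 UMIs of the cell. Cells of the 2 week 5 libraries with a score of at least 5 and below 30 were taken as intermediate. Before scoring, barcodes were kept if they had at least 500 genes, at least 2000 UMIs, at most 10% mitochondrial UMIs and fewer than 3 of the macrophage genes Mrc1, Pf4, F13a1, Ms4a7, Cd163 and Lyve1.

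In all, 271 intermediate cells were found among 1188 cells kept at week 5 and 4000 barcodes in the whole series. They made up 176 of 711 cells (24.8%, exact Clopper-Pearson 95% interval 21.6 to 28.1%) in week 5 replicate 1 and 95 of 477 (19.9%, 16.4 to 23.8%) in replicate 2. The low-score cells below 5 numbered 345 and 342, and the high-score cells of 30 or more numbered 190 and 40. In the untreated week 0 libraries only 9 of 321 and 14 of 761 cells lay in the same score range, and 1 cell in each lay above it. The share is that of the cells passing these limits, and the high-score share differed between the week 5 libraries by more than their counting intervals (26.7% against 8.39%).

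The libraries came from the corpus callosum, the large white matter tract between the hemispheres, of male C57BL/6 mice aged 13 weeks. Week 0 animals were not treated, and week 5 animals received cuprizone, a copper chelator that kills oligodendrocytes and strips myelin. Live nucleated cells carrying CD11b, an integrin of myeloid cells, were sorted and run on a droplet platform that reads the 3′ ends of transcripts, with 2 libraries per group. Whether the 2 libraries of a group came from different animals is not stated in the labels. In the comparison with week 0, p-values therefore reflect library-to-library spread, which may be technical only. Those within week 5 come from a fit with library as a block. They reflect how far the differences between classes varied between the 2 libraries, which may also be technical only. The deposited tables held 1000 barcodes and 2415001 to 6559032 UMIs each. Replicate 1 at week 5 was the deeper of its pair, and this depended on the class: median UMIs of low-score, intermediate and high-score cells were 6179, 7224 and 13461 in replicate 1 and 5670.5, 5603 and 5060.5 in replicate 2. The week 5 libraries shared 2 cell barcodes, 1 of them among the intermediate cells.

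The cells carried microglial identity. At least 3 of 12 microglial markers were detected in 175 of 176 and 94 of 95 intermediate cells. At least 3 markers of another cell type were found in 12 of 176 cells of replicate 1, of which 6 carried markers of border-associated macrophages, 4 of choroid plexus, 1 of oligodendrocytes and 1 of astrocytes. In replicate 2 they were found in 3 of 95 cells, 1 each for border-associated macrophages, T and NK cells, and astrocytes. No intermediate cell reached 3 markers of monocytes or neutrophils. The transthyretin gene Ttr, the most abundant choroid plexus transcript, had 3782 UMIs in the intermediate cells of replicate 1, of which 98.4% came from 4 cells. It had 1 UMI in those of replicate 2.

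The score itself is a description, since it chose the cells. An intermediate cell had a median of 8 score UMIs in replicate 1 and 6 in replicate 2, from a median of 4 and 3 of the 8 genes. Clec7a, a receptor for beta-glucans, gave 26.4% and 34.0% of these UMIs, Axl, a receptor for coated apoptotic cells, 16.3% and 18.6%, and Lpl, a lipoprotein lipase, 14.5% and 25.8%. The inhibitor Cst7 gave 20.9% in replicate 1 and 6.44% in replicate 2. In replicate 1, Apoe was 237 UMIs per 10000 in cells just below the lower limit (score 4 to 5) and 294 just above it (5 to 6). It was 669 just below the upper limit (25 to 30) and 856 just above it (30 to 36). In replicate 2 the same 4 values were 210, 188, 817 and 426, the last from 4 cells, so Apoe went opposite ways across each limit in the 2 libraries. Over wider ranges of the score the libraries went the same way at the upper limit. Apoe was 821 at 20 to below 30, 719 at 30 to below 60 and 856 at 60 or more in replicate 1. In replicate 2 it was 738, 663 and 880. P2ry12, a gene of the resting state, was 19.6 and 20.8 per 10000 UMIs around the lower limit and 4.25 and 2.49 around the upper one in replicate 1. In replicate 2 it was 13.7, 17.9, 4.98 and 3.24, so in both libraries it was slightly higher just above the lower limit and lower just above the upper one.

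Genes outside the score were used to place the cells. A gene was chosen in 1 library if it differed at least 2-fold between low-score and high-score cells, and its intermediate level was then read in the other library, with low-score cells at 0 and high-score cells at 1 on the log2 scale. The median position was 0.385 over 1394 genes placed in replicate 1 (quartiles 0.175 and 0.536) and 0.337 over 775 genes placed in replicate 2 (0.190 and 0.518). The intermediate level lay strictly between the other classes for 79.3% and 87.2% of these genes. Genes higher in high-score cells had reached 0.417 and 0.355, and genes lower in them 0.343 and 0.270. On the log2 scale the cells therefore sat nearer to the low-score end in both libraries.

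**Figure D1:**
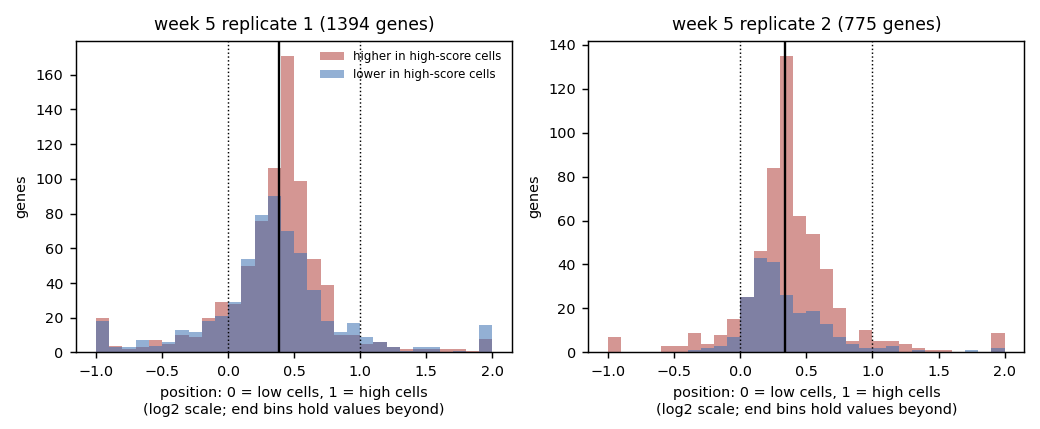
Histograms of the position of each placed gene, from 0 (level of low-score cells) to 1 (level of high-score cells) on the log2 scale, in week 5 replicate 1 and replicate 2; the vertical line is the median. The medians of 0.385 and 0.337 fall left of the centre, with a wide spread over genes.

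The position of the sums was also that of single cells. The genes chosen in the other library as at least 4-fold higher in high-score cells, without Apoe, were summed in each cell. In replicate 1 the median sum was 118 per 10000 UMIs in low-score, 232 in intermediate and 461 in high-score cells, and 158 of 176 intermediate cells (89.8%) lay between the outer medians. In replicate 2 the medians were 93.1, 193 and 477, and 86 of 95 cells (90.5%) lay between the outer 2. Of low-score cells 48.7% and 49.1% lay there in replicates 1 and 2, and of high-score cells 50% in each, since a median splits its own class. The corresponding sums of genes that were lower in high-score cells had medians of 328, 192 and 69.7 in replicate 1 and 78.9, 33.5 and 4.24 in replicate 2. For this second set 153 of 176 and 87 of 95 intermediate cells lay between the outer medians, so few cells were beyond either end on either sum. Apoe spread more widely than the sum: its 10th and 90th percentiles in intermediate cells were 26.2 and 1231 per 10000 UMIs in replicate 1 and 29.6 and 1330 in replicate 2, with 39 of 176 and 16 of 95 cells above the high-score median.

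**Figure D2:**
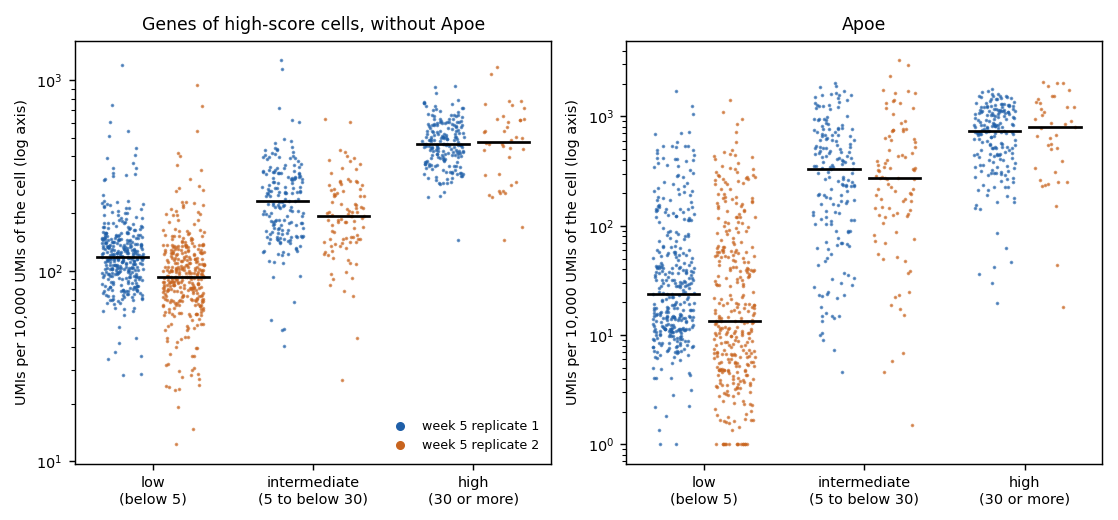
Each point is a cell, by class and week 5 library, with UMIs per 10000 on a log axis (values under 1 are drawn at 1) and a black bar at the median; 1 panel sums the genes of high-score cells without Apoe and the other shows Apoe. Median sums rise from 118 to 232 to 461 in replicate 1 and from 93.1 to 193 to 477 in replicate 2, while Apoe in intermediate cells spans the range of both other classes.

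Resting and activated transcripts were found in the same cells. A UMI of P2ry12 or Tmem119, both genes of resting microglia, together with a UMI of Igf1, Lgals3 or Lilrb4a, all genes of activated microglia, was seen in 98 of 176 intermediate cells of replicate 1 (55.7%) and 47 of 95 of replicate 2 (49.5%). The share was 9.28% and 7.89% in low-score cells and 77.4% and 37.5% in high-score cells. Detection depends on depth, and high-score cells of replicate 1 were the deepest. With every cell thinned to 2000 UMIs, P2ry12 was seen in 93.6% of low-score, 68.2% of intermediate and 28.4% of high-score cells of replicate 1 (95.7%, 90.3% and 73.7% unthinned). Igf1 was seen in 1.16%, 14.8% and 47.9% of the same thinned cells (3.19%, 34.7% and 86.8% unthinned). As a measure of free RNA, 10 cells of replicate 2 with at least 3 T and NK cell markers had a median Apoe of 2.01 per 10000 UMIs (range 0 to 17.6) at a median depth of 7558.5 UMIs, against a median of 273 in intermediate cells of that library. Of these 10 cells, 1 of which is itself an intermediate cell, 2 had a UMI of P2ry12, 1 of Tmem119, 0 of Igf1, 6 of Lgals3 and 2 of Lilrb4a. Lgals3 was seen in 32 of 95 intermediate cells of this library and Lilrb4a in 24, so neither share is clearly above that in these 10 cells. With Igf1 alone in place of the 3 activated genes, both kinds of transcript were seen in 55 of 176 and 17 of 95 intermediate cells, against 11 of 345 and 7 of 342 low-score cells. Replicate 1 held no cells with 3 T and NK cell markers.

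**Figure D3:**
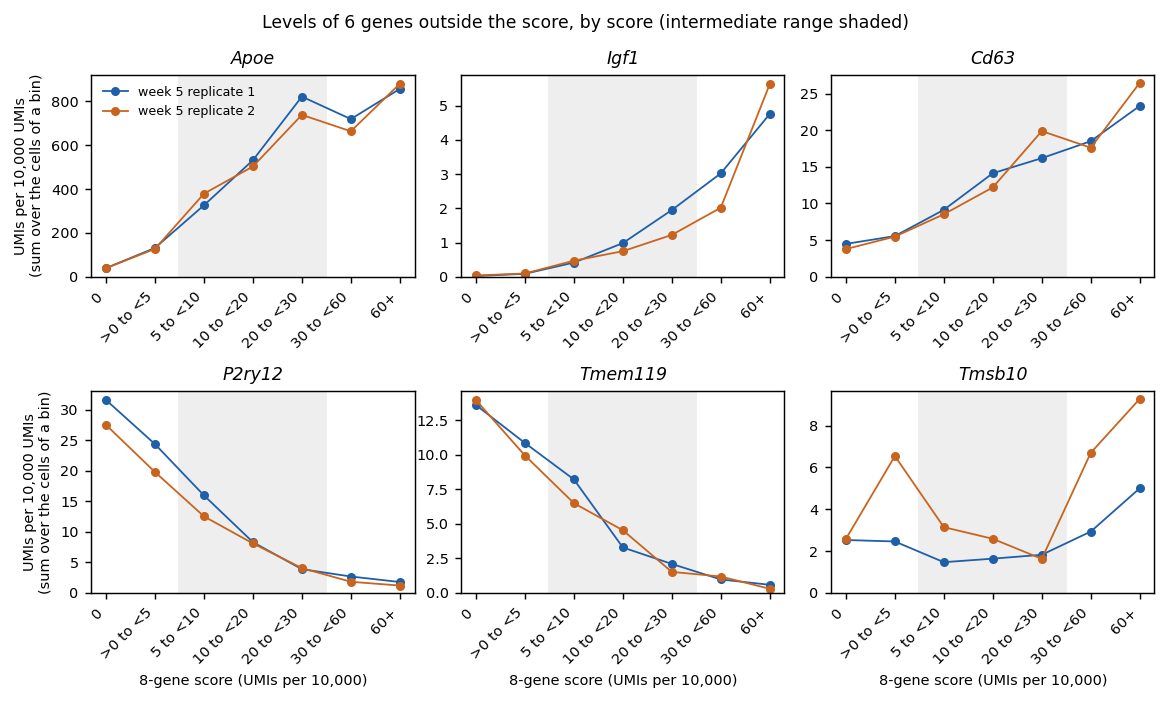
Level of 6 genes (UMIs per 10000, linear axis) over bins of the score, from 0 to 60 or more, with 1 line for each week 5 library. Intermediate cells fill the bins from 5 to below 30. P2ry12 and Tmem119 decline and Igf1, Cd63 and Apoe increase through the intermediate bins, and Tmsb10 is higher in both bins from 30 upward than in any intermediate bin.

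For tests, UMIs were summed over the cells of each class in each week 5 library and compared in 1 edgeR fit with library as a block; the score genes were left out of all counts. Levels below are UMIs per 1000000 UMIs of a sum (CPM), given for low-score, intermediate and high-score cells in turn. Intermediate cells had 422 genes higher and 142 lower than low-score cells at an adjusted p under 0.05, 5.67% of 9941 genes tested (4.25% higher, 1.43% lower). High-score cells differed from intermediate cells in 1258 genes, 12.7% (788 higher, 7.93%, and 470 lower, 4.73%). Of the calls of the first comparison, 408 of the higher and 140 of the lower went the same way in each library alone. These splits depend on scaling: with library size as the only scaling, the median gene shifted by -0.20 and -0.39 on the log2 scale, and the splits were 216 higher and 356 lower for the first comparison and 359 higher and 1580 lower for the second. No called gene of either comparison changed sign under that scaling, but only 358 of the 564 and 829 of the 1258 were still called. Cells of the 3 classes come from the same libraries, and the classes share 1 score, so both comparisons use the same intermediate sums and are not independent of each other.

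Apolipoprotein genes were among the largest differences. Apoe, which encodes the brain's principal apolipoprotein, was 8546, 56100 and 107203 CPM in the low-score, intermediate and high-score cells of replicate 1. It was 6886, 47051 and 97915 in replicate 2. The sums of the classes did not overlap, although their single cells did, and week 0 cells had 1201 and 348. The log2 difference from low-score to intermediate cells was 2.76 (SE 0.11, adjusted p = 2.9e-33), and from intermediate to high-score cells 0.99 (SE 0.10, adjusted p = 8.8e-12). Apoc4, a lipoprotein gene beside Apoe, went from 2.98 to 99.1 and 472 in replicate 1 and from 1.88 to 48.0 and 354 in replicate 2. Its first difference was 4.92 (SE 0.35) and its second 2.43 (SE 0.21). Neither week 0 table has a row for Apoc4, so no fold against week 0 is given for it. Apoc1, another gene of this cluster, differed between libraries, with 559 in the intermediate cells of replicate 1 and 33.8 in those of replicate 2. Of 17 lipid genes tested, 12 were higher in intermediate than in low-score cells and none lower (median log2 difference 0.94, against 0.01 over all genes). From intermediate to high-score cells 12 were higher and 1, the phospholipid enzyme Lpcat2, was lower. The lipid-droplet coat Plin2 was among those higher at both steps, at 22.96, 78.3 and 206 in replicate 1 and 26.3, 62.2 and 198 in replicate 2. Of 11 cholesterol synthesis genes, none was called at either step by edgeR, none had an unadjusted p under 0.05, and DESeq2 called none.

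Both stages of the disease-associated programme were already raised. All 8 genes of the first stage were higher in intermediate than in low-score cells (median 0.89) and higher again in high-score cells (median 1.10). With library size as the only scaling 5 of the 8 were called at the first step. The lysosomal protease Ctsb was 1565, 3481 and 6841 in replicate 1 and 1404, 2760 and 5249 in replicate 2, with differences of 1.08 (SE 0.14, adjusted p = 2.7e-08) and 0.95 (SE 0.14, adjusted p = 5.9e-07). Lysozyme (Lyz2) was 579, 1503 and 4134 in replicate 1 and 532, 1376 and 4280 in replicate 2. Tyrobp, the signalling partner of Trem2, was 2655, 3607 and 8096 in replicate 1 and 1999, 2751 and 6749 in replicate 2. Both genes stepped up at each class. Tyrobp had differences of 0.47 (SE 0.14) and 1.22 (SE 0.14), which were not shown to differ from each other (adjusted p = 0.26).

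Of 17 second-stage genes outside the score, 14 were higher in intermediate than in low-score cells and none lower (median 1.07), and 15 were higher again in high-score cells. In all, 16 of the 17 were ordered low, intermediate, high in each library; 11.8% of all genes were. Igf1, a growth factor for oligodendrocyte precursors, was 5.53, 108 and 528 in replicate 1 and 5.64, 67.6 and 500 in replicate 2, a difference of 4.01 (SE 0.30, adjusted p = 2e-18) and then 2.49 (SE 0.20, adjusted p = 4.4e-16). Lgals3, a galectin of phagocytes, was 24.2, 119 and 438 in replicate 1 and 11.8, 128 and 1656 in replicate 2. The inhibitory receptor gene Lilrb4a was 11.5, 104 and 280 in replicate 1 and 12.7, 153 and 490 in replicate 2. Of its 86 UMIs in the intermediate cells of replicate 2, 51 came from the 18 cells with a score of 20 or more, against 26 of 136 from 29 such cells in replicate 1. Csf1, the growth factor that sustains microglia, was 24.7, 76.8 and 358 in replicate 1 and 15.98, 78.3 and 500 in replicate 2. In each of these genes every intermediate sum lay above both low-score sums and below both high-score sums. The tetraspanin Cd63 had differences of 1.55 (SE 0.16) and 1.17 (SE 0.16). Trem2 itself was 1860, 2351 and 3554 in replicate 1 and 1895, 2401 and 3317 in replicate 2. Its first difference missed the threshold (0.36, SE 0.15, adjusted p = 0.16) and its second passed (0.53, SE 0.15, adjusted p = 0.0083). Cd34 passed at neither step, and Serpine2 only at the second.

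Homeostatic genes were partly lowered. Of 25 tested, 9 were lower in intermediate than in low-score cells and none higher (median -0.37), and 14 were lower and 1, Fcrls, higher in high-score than in intermediate cells (median -0.60). With library size as the only scaling 16 and 23 were lower, and Fcrls was not called. P2ry12, the purinergic receptor that directs microglial processes, was 2533, 1059 and 307 in replicate 1 and 2118, 939 and 188 in replicate 2, and 3374 and 3233 at week 0. Its differences were -1.20 (SE 0.16, adjusted p = 3.3e-08) and -1.98 (SE 0.18, adjusted p = 2.7e-14). Tmem119 was 1111, 504 and 108 in replicate 1 and 1072, 487 and 88.5 in replicate 2, with differences of -1.12 (SE 0.16) and -2.30 (SE 0.20). The fructose transporter Slc2a5 fell by 1.302 (SE 0.20) and then by 1.34 (SE 0.28) on the log2 scale. Selplg, P2ry13, Siglech, Crybb1, Cd164 and Ltc4s were the other 6 lower genes at the first step.

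Other identity genes differed later or not beyond the threshold. Cx3cr1, the fractalkine receptor, was 5248, 3949 and 2697 in replicate 1 and 5300, 4336 and 1531 in replicate 2. Its first difference was -0.32 (SE 0.15, adjusted p = 0.28) and its second -0.99 (SE 0.16, adjusted p = 1.4e-06). Csf1r, the receptor for Csf1, had -0.18 (SE 0.15, adjusted p = 0.69) and then -0.61 (SE 0.15, adjusted p = 0.0024), and the transcription factor Sall1 -0.51 (SE 0.18, adjusted p = 0.082) and then -1.16 (SE 0.22, adjusted p = 4.6e-05). The test of whether the steps differ, given further on, called none of the 25 homeostatic genes by edgeR and 1 by DESeq2. At an unadjusted edgeR p under 0.05, 7 were higher and 1 lower than midway between the outer classes.

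Other genes lower in intermediate cells included Ddit4, an inhibitor of mTOR signalling, at 91.4, 36.1 and 10.8 in replicate 1 and 158, 53.4 and 20.8 in replicate 2, a difference of -1.42 (SE 0.22, adjusted p = 2.1e-06). Its week 0 levels, 19.6 and 17.5, were under those of the intermediate cells. The B cell scaffold gene Bank1 (-1.88, SE 0.33), Mtss1 (-1.77, SE 0.30), Lrba (-1.46, SE 0.22) and the transcription factor Cebpd (-1.25, SE 0.21) were also lower.

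**Figure D4:**
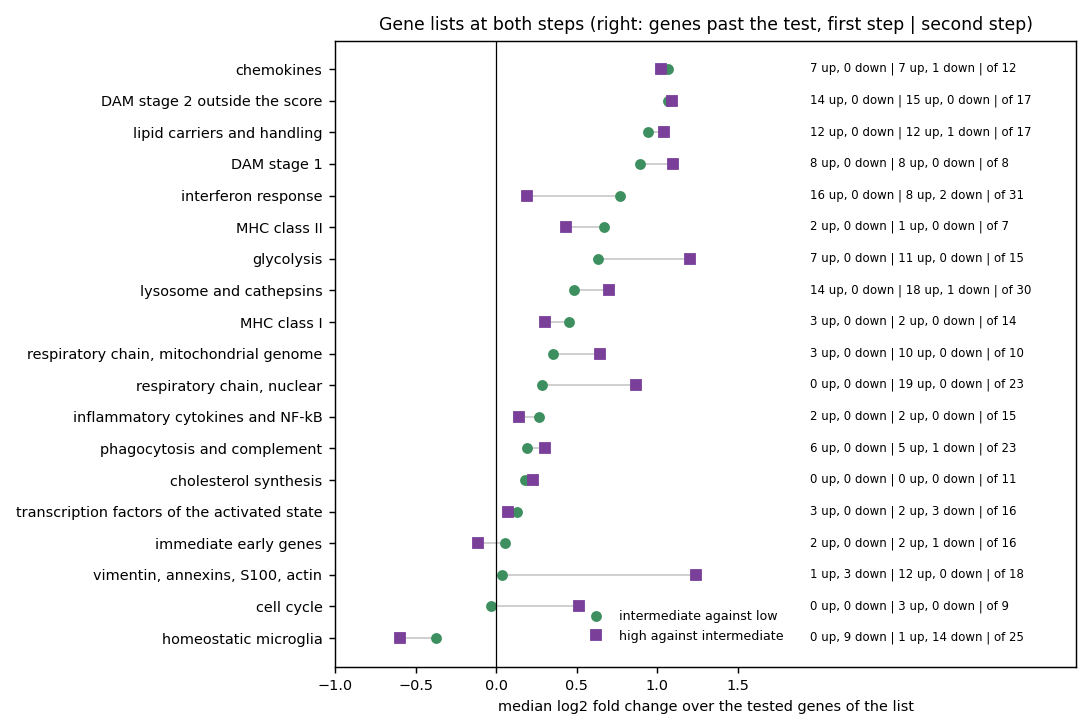
Median log2 difference of each of 19 gene lists from low-score to intermediate cells and from intermediate to high-score cells at week 5, with the number of genes called higher and lower. The disease-associated, lipid, lysosome and glycolysis lists are above 0 at both steps and the homeostatic list is below 0 at both; the nuclear respiratory chain list has no call at the first step and 19 at the second.

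Lysosomal and glycolysis genes were called at both steps and nuclear respiratory chain genes at the second, while the test of whether the steps differ called no gene of these 3 lists. Of 30 lysosome genes, 14 were higher in intermediate than in low-score cells (median 0.49), and 18 were higher and 1, the protease gene Lgmn, lower in high-score cells (median 0.70). Of 15 glycolysis genes, 7 were higher at the first step (median 0.63) and 11 at the second (median 1.20), with 3 and 10 under library-size scaling. Aldolase (Aldoa) was 213, 375 and 914 in replicate 1 and 143, 297 and 1099 in replicate 2, with differences of 0.95 (SE 0.18) and 1.56 (SE 0.18). Of 23 nuclear genes of the respiratory chain, none was called at the first step by edgeR or DESeq2 (median 0.29; 9 were higher at an unadjusted p under 0.05, and 2 were called without the cells carrying markers of another type). At the second step 19 were higher (median 0.87), 18 by DESeq2. Ndufa1, a complex I subunit, was 136, 200 and 532 in replicate 1 and 91.2, 99.6 and 328 in replicate 2. In the fit of both libraries all 23 genes lay under the midpoint of the outer classes (median -0.29), although none passed that test. Within replicate 2 alone 2 of the 23 lay above it. Of 10 mitochondrially encoded genes, mt-Co1, mt-Co2 and mt-Co3 were higher at the first step and all 10 at the second. The median mitochondrial share of UMIs was 2.15%, 2.63% and 3.21% in replicate 1 and 1.28%, 1.34% and 1.35% in replicate 2, and its part in these results was not tested. Of 9 cell cycle genes tested, none was called at the first step by edgeR or DESeq2, with 1 higher and 1 lower at an unadjusted p under 0.05, and Cdk1, Cenpf and Stmn1 were higher at the second; Cenpf had no UMI in the intermediate or high-score cells of replicate 2.

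Among receptors and regulators, Mitf, a transcription factor of lysosome and phagocyte genes, was 39.5, 74.5 and 94.0 in replicate 1 and 35.3, 78.3 and 130 in replicate 2. It passed at the first step (1.05, SE 0.23, adjusted p = 0.00099) and not at the second (0.41, SE 0.23, adjusted p = 0.28). C3ar1, the complement C3a receptor, was 183, 363 and 460 in replicate 1 and 193, 354 and 422 in replicate 2, with differences of 0.95 (SE 0.17, adjusted p = 4.7e-05) and 0.30 (SE 0.18, adjusted p = 0.31). Cd83, a membrane protein of activated antigen-presenting cells, was 94.4, 240 and 321 in replicate 1 and 77.6, 242 and 292 in replicate 2, with differences of 1.503 (SE 0.18, adjusted p = 3e-09) and 0.34 (SE 0.19, adjusted p = 0.27). For none of the 3 did the difference between the steps itself pass the test. Hif1a, the hypoxia-inducible factor, and Bhlhe40, a transcriptional repressor, were higher at both steps; they and Mitf were the only 3 of 16 transcription factors called at the first. Of 15 inflammatory genes, Relb and Cd83 were called at the first step and Il1b and Il1rn at the second.

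Chemokines differed between the libraries, and for some a few cells held much of the signal. Of 12 tested, 7 were higher in intermediate than in low-score cells (median 1.07). Within replicate 1, 9 of the 12 were higher (median 1.32), and within replicate 2 only 6 were (median 0.048). Of the 7, 5 genes, Ccl3, Ccl4, Ccl6, Cxcl14 and Cxcl16, were higher in each library. Ccl4 was 274, 701 and 1577 in replicate 1 and 236, 960 and 4015 in replicate 2, and 1 cell gave 48% and 45% of the intermediate UMIs. Cxcl16, a ligand for T cells, was spread over more cells, the top cell holding 6% and 11%. It was 84.6, 233 and 430 in replicate 1 and 59.2, 206 and 599 in replicate 2, a difference of 1.64 (SE 0.20, adjusted p = 1.7e-09). Cxcl10 was called higher, but its 564 UMIs in the intermediate cells of replicate 1 came from 6 cells, and replicate 2 had 1 UMI. Antigen presentation genes were higher in part. The class I genes B2m, H2-D1 and H2-K1 were called at the first step, 3 of 14; H2-D1 was 1251, 2096 and 2956 in replicate 1 and 1484, 2243 and 3135 in replicate 2. The class II chain Cd74 was 311, 463 and 631 in replicate 1 and 292, 1202 and 2583 in replicate 2, but 4 cells held 45.3% and 71.2% of the Cd74 UMIs of intermediate cells. For the 7 class II genes summed, the median intermediate cell had 4.52 and 4.28 per 10000 UMIs, against 3.77 and 3.58 in low-score cells.

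Interferon-response genes differed between the week 5 libraries in where the intermediate cells stood. Interferons act through a promoter element, the interferon-stimulated response element, bound by STAT and IRF factors. Its core was searched as GAAA, any 2 bases and GAAA, on both strands, from 250 bases before to 50 after each gene's start (RefSeq, GRCm38.p6). A gene was counted if any of its promoters held a match. This was so for 16 of 24 interferon genes tested that had a promoter sequence (66.7%). It was so for 314 of 7895 among all tested genes with a promoter sequence (3.98%) and for 1079 of 27025 among all genes with one (3.99%). Stretches from 3 genes that were higher in intermediate than in low-score cells in each library are shown with the match in capitals, 5′ to 3′ on the gene's strand, all on the minus strand: Ifi207 (chr1:173741816-173741875), Ifi211 (chr1:173913049-173913108) and Phf11b (chr14:59341346-59341405).
Ifi207: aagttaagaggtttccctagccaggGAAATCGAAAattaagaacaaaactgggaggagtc
Ifi211: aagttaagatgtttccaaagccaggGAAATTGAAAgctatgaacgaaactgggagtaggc
Phf11b: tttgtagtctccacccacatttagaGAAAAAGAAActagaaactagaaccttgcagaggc
The match starts 41, 37 and 50 bases before the start. Ifi207 and Ifi211 belong to one family of near-identical neighbours, and how reads were split between them is uncertain.

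Of 31 interferon genes tested, 16 were higher in intermediate than in low-score cells by edgeR and none lower (median 0.77), 5 by DESeq2. The libraries did not share this: within replicate 1 all 31 were higher (median 1.00), and within replicate 2 only 15 were (median -0.02). Of the 16 called genes, 11 were higher in each library, and Cxcl10, Ifit1, Oasl2, Rsad2 and Zbp1 were higher in replicate 1 only. Ifi207, a nuclear DNA-binding protein gene, was 39.5, 124 and 197 in replicate 1 and 34.8, 94.3 and 193 in replicate 2, a difference of 1.59 (SE 0.21, adjusted p = 4.8e-08). Usp18, which dampens interferon receptor signalling, was 42.5, 82.2 and 69.1 in replicate 1 and 34.8, 51.6 and 67.7 in replicate 2 (0.84, SE 0.23, adjusted p = 0.012). Without TMM scaling, the whole list summed to 846 and 744 CPM at week 0. It summed to 2901, 5345 and 4644 in replicate 1 and to 2909, 2889 and 4173 in replicate 2. The TMM factors were 1.09, 0.945 and 0.737 in replicate 1 and 1.15, 1.03 and 0.801 in replicate 2. Divided by them, the intermediate sum lay between the low-score and high-score sums in each library. In replicate 1 it held 564 UMIs of Cxcl10 from 6 cells. For the TMM-scaled median gene the step from intermediate to high-score cells was -0.05 in replicate 1 and 0.94 in replicate 2. By this measure intermediate cells stood with high-score cells in replicate 1 and low-score cells in replicate 2. Per cell the median was 17.2, 29.0 and 32.9 per 10000 UMIs in replicate 1 and 17.9, 22.2 and 41.3 in replicate 2. From intermediate to high-score cells 8 genes were higher and 2, Ifit1 and Cxcl10, lower (median 0.19), and this median turned to -0.16 with library size as the only scaling.

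The course of a gene through the classes was tested directly, as the intermediate level against the mean of the low-score and high-score levels on the log2 scale; this is also the test that the steps differ in size. Only 35 genes passed, 0.352% of those tested, 26 above the midpoint (0.262%) and 9 below it (0.0905%). After leaving out cells with 3 or more markers of another cell type, 15 of the 35 were still called. Apoe lay above the midpoint by 0.89 (SE 0.09, adjusted p = 7.2e-12), by nearly the same amount in each library. Apoc4 (1.24, SE 0.26, adjusted p = 0.0044), Lilrb4a (0.95, SE 0.19, adjusted p = 0.0029) and Chst2, a sulfotransferase gene, also lay above it. Chst2 was 14.0, 116 and 212 in replicate 1 and 16.9, 87.1 and 156 in replicate 2 (0.94, SE 0.19, adjusted p = 0.0035). On the log2 scale these 4 genes had gone most of the way to their high-score level in intermediate cells. These calls depend on the method: DESeq2 kept 4 of the 35, and the fit with no replicate block kept 2. DESeq2 called 0 of the second-stage genes, which include Lilrb4a, and 1 of the lipid genes, which include Apoe and Apoc4. The low-score level of Apoc4 rests on 2 cells with a UMI in replicate 1 and 4 in replicate 2.

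Filip1l, a filamin-interacting protein gene, lay above the midpoint by another course: it was 113, 77.6 and 14.6 in replicate 1 and 103, 105 and 5.21 in replicate 2. Its first difference was -0.27 (SE 0.20, adjusted p = 0.65) and its second -2.71 (SE 0.32, adjusted p = 5.6e-10), and the difference between them passed (1.22, SE 0.23, adjusted p = 0.00079). The lectin receptor gene Clec4a2 and the inhibitory receptor gene Siglece followed the same order, with adjusted p = 0.025 and 0.016, but were not called after leaving out the cells with markers of another type.

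Of the 9 genes below the midpoint, Tmsb10, Rcan1, Postn and Vim were under the low-score level in the intermediate sums of each library and above it in the high-score sums. For Postn in both libraries and Vim in replicate 2 the low-score and intermediate sums were close, so no dip under the low-score level is shown there. S100a6, a calcium-binding protein gene, did not share this: it was 35.3, 2.30 and 3.78 in replicate 1 and 38.1, 7.11 and 57.3 in replicate 2, and it was not called without the cells of other types. Tmsb10, a thymosin that binds actin, was 230, 173 and 539 in replicate 1 and 381, 263 and 1015 in replicate 2 (TMM-scaled). It lay below the midpoint by -1.11 (SE 0.16, adjusted p = 3.2e-06), and its first difference, -0.45, missed the threshold (adjusted p = 0.15). In replicate 2, 9 low-score cells with at least 3 T and NK cell markers held 436 of the 811 low-score UMIs of Tmsb10, and 1 such intermediate cell held 26 of 148. Without these cells the unscaled level was 208, 225 and 811 UMIs per 1000000, so the intermediate cells were not under the low-score cells in that library. In replicate 1, which had no such cell, it was 249, 162 and 396. After leaving out cells with markers of any other type the midpoint difference was -0.96 (adjusted p = 0.011). It was -0.47 (adjusted p = 0.24) with cells re-chosen after thinning. Rcan1, an inhibitor of calcineurin, was 42.5, 29.2 and 79.9 in replicate 1 and 44.2, 26.7 and 93.7 in replicate 2 (-1.05, SE 0.24, adjusted p = 0.013). Postn, which encodes the matrix protein periostin, was 3.83, 3.07 and 69.1 in replicate 1 and 6.11, 5.34 and 182 in replicate 2 (-2.43, SE 0.48, adjusted p = 0.0025). In the intermediate sums 1 UMI is 0.768 CPM in replicate 1 and 1.78 in replicate 2, so these Postn levels are a few UMIs. Vim, an intermediate filament gene, was 28.1, 14.6 and 72.4 in replicate 1 and 32.9, 32.01 and 177 in replicate 2 (-1.38, SE 0.28, adjusted p = 0.0025), and was not called without the cells of other types. In the fit of both libraries all 18 genes of the vimentin, annexin, S100 and actin list lay under the midpoint (median -0.53), 3 of them past the test. Within each library alone 1 of the 18 lay above it. At the second step 12 of the 18 were higher. At the first, Anxa5 was higher and S100a4, S100a6 and S100a10 were lower; without the cells of other types 3 were higher and none lower, of 15 tested.

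**Figure D5:**
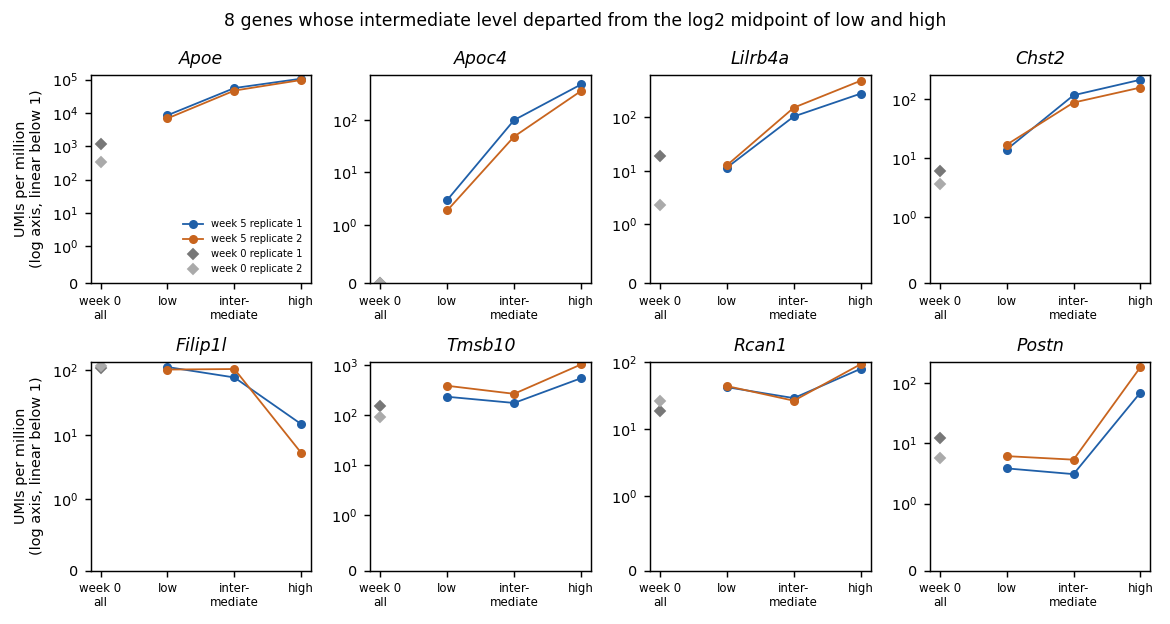
Levels of 8 genes in CPM (log axis, linear near 0) in low-score, intermediate and high-score cells, with 1 line for each week 5 library. Diamonds show all kept cells of each week 0 library. Apoc4, which has no row at week 0, is drawn at 0 there. Apoe, Apoc4, Lilrb4a and Chst2 have most of their log-scale increase between the low-score and intermediate classes, Filip1l drops after the intermediate class, and Tmsb10, Rcan1 and Postn increase after it.

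Other genes were found mainly in high-score cells. Mmp12, a macrophage elastase, was 0, 1.54 and 59.4 in replicate 1 and 0, 1.78 and 271 in replicate 2, and fibronectin (Fn1) was 3.83, 24.6 and 358 and 1.41, 5.34 and 109. The second step was 6.16 (SE 0.48, adjusted p = 3.3e-17) for Mmp12 and 3.90 (SE 0.28, adjusted p = 4.4e-19) for Fn1. Neither passed the midpoint test, so the steps were not shown to differ.

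Against untreated microglia, intermediate cells differed in 879 of 9565 genes, 9.19%: 600 were higher (6.27%) and 279 lower (2.92%), or 409 higher and 785 lower with library size as the only scaling (median gene -0.30). This fit held 4 sums, the intermediate cells of each week 5 library and all kept cells of each week 0 library, and the low-score cells of week 5 were not in it. On simulated counts this fit made more false calls than its threshold allows, so single calls near the threshold are less sure than in the week 5 fit. A gene with no row in a table was entered as 0; this touched 6 of the genes tested, of which Apoc1, Apoc4, Ifi44 and 4930556M19Rik were called. The count ranged from 514 without week 0 replicate 2 to 1373 without week 5 replicate 2. Of 29 interferon genes tested, 28 were higher than at week 0 (median 3.32), and all 28 were higher in each week 5 library. Usp18 rose from 0.56 and 2.88 at week 0 to 82.2 and 51.6 (4.94 on the log2 scale), and 11 of 14 class I genes rose, H2-D1 from 400 and 362 to 2096 and 2243 (2.52, SE 0.20, adjusted p = 1e-05). Low-score cells of week 5 already held 42.5 and 34.8 of Usp18 and 1251 and 1484 of H2-D1.

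Apoe was higher than at week 0 by 6.07 (SE 0.48, adjusted p = 1.1e-05), and 15 of 17 second-stage genes and 6 of 8 first-stage genes outside the score were higher. Ctsd and Tyrobp were the first-stage genes that missed the threshold. Of 25 homeostatic genes 13 were lower and 1, the protease gene Ctss, higher. P2ry12 was lower by -1.72 (SE 0.19, adjusted p = 0.00014) and Tmem119 by -1.42 (SE 0.19, adjusted p = 0.0005). Cx3cr1 (-0.56, adjusted p = 0.073) and Trem2 (0.28, adjusted p = 0.46) missed the threshold. All 9 chemokines tested were higher, Cxcl16 rising from 58.4 and 43.9 to 233 and 206.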

How the data were processed

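Each deposited table is a matrix of UMI counts, genes by barcodes; all values are whole numbers and show no normalization by the authors. The submitters' processing notes name mm10, STAR, Cell Ranger 3.0.0 and Seurat 4, with no role given. The labels do not describe the selection of the 1000 barcodes in each table. The cells, lists and tests were chosen with earlier results of these data known. Tables differ in their gene rows; a missing row was entered as 0 (12 of the genes tested within week 5, 1 of them called). Counts were summed per class and library and tested with edgeR 4.0.16 (R 4.3.3; TMM, default filter on low counts, quasi-likelihood, Benjamini-Hochberg, threshold 0.05): 1 fit of 6 week 5 sums with library as a block, and 1 fit of 4 sums against week 0. With 2 libraries per group a permutation test cannot go below p = 0.333, so none is given. The fits were tested on simulated counts, with the changed genes drawn from all genes tested: most 4-fold changes were found, many 2-fold changes were missed, and in the comparison with week 0 false calls exceeded the threshold rate, so a gene not called may still differ. Named genes are the 12 largest rises and falls per comparison (adjusted p under 0.05, same sign in each library, at least 50 CPM, UMIs per 1000000 UMIs), genes of the disease-associated and homeostatic lists (1 is not reported here), and the 2 largest per other list; others, such as those that fill small counts or differ between libraries, were named after their values were seen. Doublets were marked with scrublet (scanpy 1.11.5; 24 of 3728 cells, 5 and 0 of them intermediate) and kept. Replicate numbers are not stated to pair week 0 with week 5 libraries. The alternatives covered scaling, DESeq2 1.42.0, filters, thinning, score limits, doublets, the block and single libraries; those on macrophage genes, markers of other cell types and thinned positions were added after seeing the data. Intervals cover counting error only.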

Additional observations from a re-analysis of the deposited data

How the results depend on the processing

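Counts of calls moved with the processing. Genes that differed between intermediate and low-score cells numbered 564, and 328 with cells thinned to 2000 UMIs, 165 with no replicate block and 241 by DESeq2. Between high-score and intermediate cells the count of 1258 became 534 when thinned, 831 with score limits of 8 and 25, 1939 with library size as the only scaling, 554 with no replicate block and 615 by DESeq2. The 35 genes off the midpoint became 12 when thinned, 12 with limits of 8 and 25, 15 without cells carrying markers of another type, 2 with no replicate block and 6 by DESeq2. Against week 0 the count of 879 became 518 when thinned, 514 by DESeq2, 1339 with the replicate block, which kept 878 of the 879 calls, and 514 to 1373 with single libraries left out. Same-numbered deviations of these libraries correlated at 0.156, with 2 pairs only. Within week 5, leaving out a library leaves no spread to test, so those values carry no test. The mean share of intermediate cells was 22.3% (19.9 to 24.8% by library), 31.5% when cells were re-chosen after thinning and 14.0% with limits of 8 and 25. The mean position of 0.361 (0.337 to 0.385 by library) became 0.319 with cells re-chosen after thinning, 0.407 without the top 5% of cells by UMIs, 0.423 over genes 4-fold apart and 0.296 on the linear scale. With single week 5 libraries left out, values spanned 0 for Apoc1 (midpoint -0.996 to 1.79), Cxcl10 (-2.30 to 4.81 against low-score cells, midpoint -0.41 to 5.58) and Ifit1 (-1.46 to 1.86 against low-score cells, -1.26 to 1.39 from intermediate to high-score cells, midpoint -1.43 to 1.56), with the reversed sign when replicate 1 was left out. Ifit1 also turned to -0.056 against low-score cells with limits of 8 and 25. With cells re-chosen after thinning, Ccl2 reversed (-1.15 from intermediate to high-score cells, midpoint 1.23), as did Il1b (-0.46 from intermediate to high-score cells) and S100a6 (midpoint 1.10, against week 0 0.57). The cause of these changes was not tested. Of the values of single genes under alternatives, 3246 kept direction and side of the threshold and 339 lost the call. Depth limits the score: 9 and 6 of the intermediate cells hold at most 2 score UMIs.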
